A study of Rattus norvegicus with 20 samples.

Results

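The 10 genes followed here build and reshape mitochondria in rat gastrocnemius muscle, and the level of none of them was called different between tumour-bearing rats with and without chemotherapy, or between a standard and a fish oil diet. They were Ppargc1a, Ppargc1b, Tfam, Nrf1, Esrra, Mfn1, Mfn2, Opa1, Dnm1l and Fis1, chosen by gene symbol, and all 10 had a row among the 32495 named gene rows of the count table. All 10 were also among the 11716 genes that passed the filter on low counts. Of those 11716 genes, 2.38% were called with chemotherapy on the standard diet and 1.66% with fish oil against the standard diet. With shares this low few calls are to be found among any 10 genes, so their absence does not set these 10 genes apart. Within groups, 13 of the 45 pairs of these genes were correlated across samples. Of these, 8 held without 1 sample, CHEMO FO 18, and 4 without 3 samples that stood apart. The share of pairs passing among all genes was not computed, so the 13 are not shown to be particular to these genes.

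The study sequenced ribosomal RNA-depleted, stranded total RNA libraries from the gastrocnemius of female Fischer 344 rats aged 11 to 12 (no unit is stated in the methods). Every rat, controls included, carried the transplanted Ward colon tumour, grown for 2 weeks before chemotherapy began, so no group stands for tumour-free muscle. TUMOUR STD rats (5 libraries) ate the standard diet and had no chemotherapy. CHEMO STD rats (7 libraries) ate the same diet and had 2 cycles, 7 days apart, of irinotecan (CPT-11) followed a day later by 5-fluorouracil at 50 mg/kg. CHEMO FO rats (8 libraries) had the same 2 cycles and ate a fish oil diet with eicosapentaenoic and docosahexaenoic acid from the first day of chemotherapy. Muscle of the chemotherapy groups was taken 7 days after the second cycle.

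CHEMO STD replicates 1 and 2 were counted as 1 sample by summing their counts, which leaves 6 CHEMO STD samples and 19 samples in all. Their counts differed by a mean chi-square of 2.23 per gene, while the remaining 58 within-group pairs gave 13.7 to 255. The pair was not identical, and for Nrf1 the counts were 120 and 189. Libraries held 3020821 to 10857477 counts on named genes. The labels do not tie libraries to individual rats, so p-values measure the spread between these samples. Fast fibre genes such as Myh4, the myosin of the fastest fibres, summed to 106300 to 199600 CPM (counts brought to 1 common library size with TMM factors) in every sample, so the defining genes of the labelled tissue were present. CHEMO FO 18 stood apart with the lowest fast fibre sum, 106300 CPM against 156500 or more in the other samples, and the highest leukocyte sum, 529 CPM against 115 to 256. Skin marker genes, most of them keratins, summed to 378 CPM in TUMOUR STD 10 and 81.0 CPM in CHEMO FO 16, and to 3.37 CPM or less elsewhere.

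Mitochondria in muscle are renewed by a transcriptional programme and kept in shape by membrane fusion and division. Ppargc1a and Ppargc1b encode the coactivators PGC-1 alpha and PGC-1 beta, which bind transcription factors such as ERR alpha (Esrra) and NRF1 (Nrf1) and switch on nuclear genes for mitochondrial proteins. One of those, Tfam, encodes a factor that packages mitochondrial DNA and takes part in starting its transcription. Mitofusins 1 and 2 (Mfn1, Mfn2) join outer membranes, OPA1 (Opa1) joins inner membranes and shapes cristae, DRP1 (Dnm1l) constricts and divides the organelle, and Fis1 is an outer membrane protein that takes part in division. PGC-1 alpha is best known in skeletal muscle for its response to endurance exercise and for favouring oxidative fibres.

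The promoters of 5 genes are shown so that their sequences can be compared. Ppargc1a, Mfn1, Dnm1l and Opa1 varied together across samples. Over the 19 samples Tfam was correlated with Mfn1 and Dnm1l but did not pass with Ppargc1a or Opa1. Each line gives the 250 bases before the annotated start in the RefSeq annotation of build GRCr8, read on the gene's own strand, with capitals marking every match to 6 motifs on either strand. The motifs were the cAMP response element TGACGTCA, an NRF1 site GCGCNNGCGC, an ERR site AAGGTCA, a GABP or other ETS site CCGGAAG, an Sp1 site GGGCGG and an E-box CACGTG. The windows are chr14:63634058-63634307 (plus strand) for Ppargc1a, chr2:117241508-117241757 (plus) for Mfn1, chr11:98085147-98085396 (plus) for Dnm1l, chr11:84689901-84690150 (minus) for Opa1 and chr20:17355123-17355372 (plus) for Tfam.
Ppargc1a: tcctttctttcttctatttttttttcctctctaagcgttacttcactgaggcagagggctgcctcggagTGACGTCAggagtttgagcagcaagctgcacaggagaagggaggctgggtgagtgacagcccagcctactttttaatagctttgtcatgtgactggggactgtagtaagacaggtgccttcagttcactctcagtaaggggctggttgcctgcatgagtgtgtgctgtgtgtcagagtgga
Mfn1: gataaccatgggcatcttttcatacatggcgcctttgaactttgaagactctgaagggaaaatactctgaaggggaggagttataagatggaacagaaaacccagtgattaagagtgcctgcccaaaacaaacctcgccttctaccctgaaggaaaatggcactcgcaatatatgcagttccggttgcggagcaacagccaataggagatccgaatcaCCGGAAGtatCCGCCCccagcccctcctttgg
Dnm1l: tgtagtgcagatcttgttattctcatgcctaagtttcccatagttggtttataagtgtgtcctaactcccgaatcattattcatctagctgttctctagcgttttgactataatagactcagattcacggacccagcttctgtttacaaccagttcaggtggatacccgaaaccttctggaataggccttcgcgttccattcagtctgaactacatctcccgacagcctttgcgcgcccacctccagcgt
Opa1: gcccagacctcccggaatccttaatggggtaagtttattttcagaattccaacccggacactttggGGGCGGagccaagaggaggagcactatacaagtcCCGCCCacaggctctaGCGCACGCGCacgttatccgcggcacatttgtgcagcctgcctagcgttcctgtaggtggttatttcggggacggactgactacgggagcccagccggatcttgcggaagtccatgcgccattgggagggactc
Tfam: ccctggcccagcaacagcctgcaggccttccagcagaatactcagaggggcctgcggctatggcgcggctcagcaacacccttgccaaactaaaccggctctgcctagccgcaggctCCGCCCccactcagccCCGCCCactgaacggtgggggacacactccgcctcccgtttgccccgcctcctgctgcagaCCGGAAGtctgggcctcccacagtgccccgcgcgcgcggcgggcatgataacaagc

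The 5 promoters held no motif in common. Ppargc1a had a cAMP response element from 181 to 174 bases before the start, a sequence found in 1.59% of all 33469 promoter windows of this length. Mfn1 and Tfam each held a GABP site, at 32 and 56 bases before the start, which 7.27% of windows hold. Opa1 held an NRF1 site 134 bases before the start (4.8% of windows), and Dnm1l held none of the 6. Sp1 sites stood in the windows of Mfn1, Opa1 and Tfam, and in 30.5% of all windows. No ERR site (3.99% of windows) and no E-box (5.59%) was found in any of the 9 members with a promoter entry. The entry for Mfn2 was not found in the table used. These matches are descriptions of letters, with no binding measured here.

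Chemotherapy on the standard diet was compared with no chemotherapy first. The rule for a call joined an unadjusted p below 0.05 with a change of 1.5-fold or more in edgeR's quasi-likelihood test. Thresholds of this kind are the ones used in the methods of the study. None of the 10 genes was called, where 2.38% of the 11716 genes tested were (279 genes). None reached an unadjusted p below 0.05 at any fold either, where 6.5% of all genes did. The changes ran from -0.39 (Ppargc1b) to 0.34 (Dnm1l) on the log2 scale, with a median of 0.04, and 6 of the 10 were higher in CHEMO STD. No gene in the whole table passed an adjusted p of 0.05 in this comparison in edgeR or DESeq2, and the smallest adjusted p in edgeR was 0.652.

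**Figure D1:**
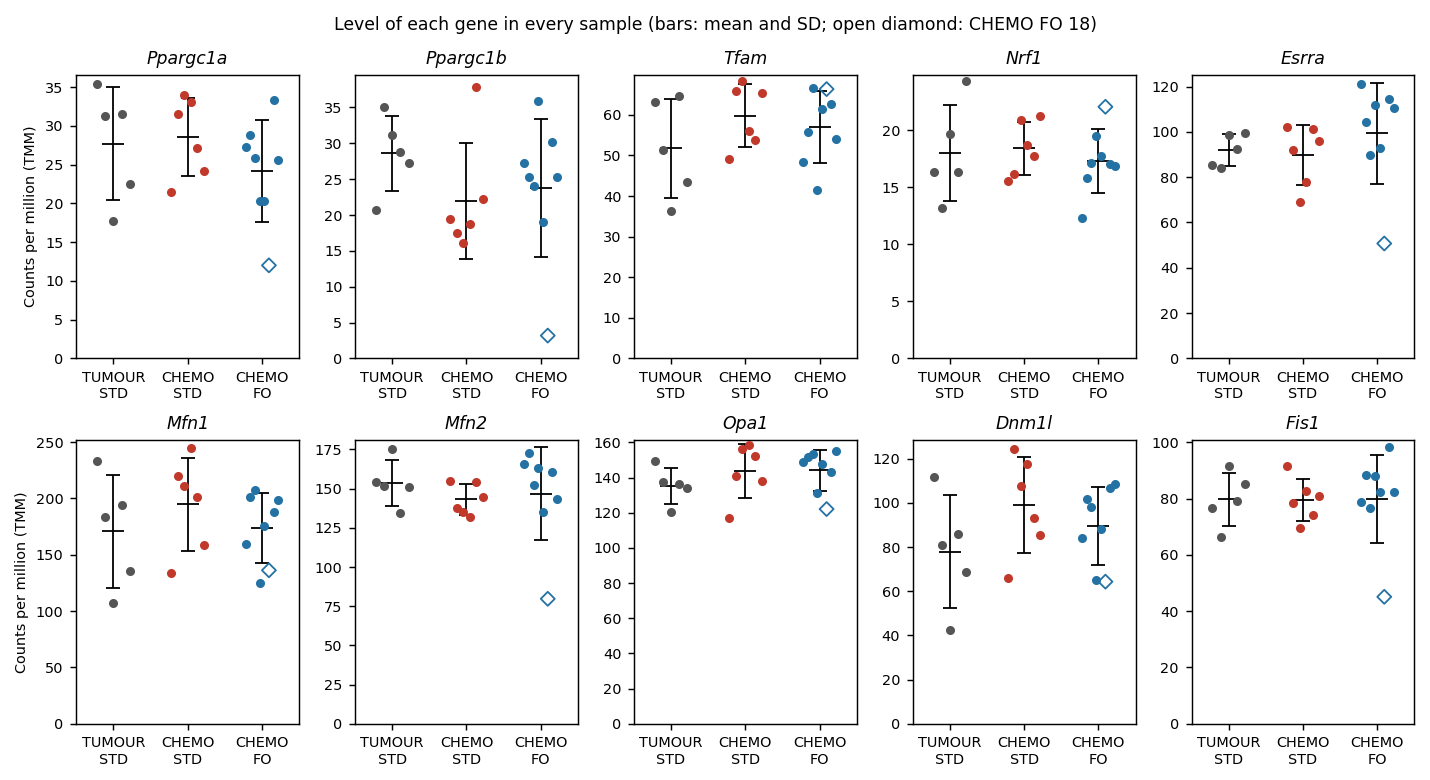
Level of each of the 10 genes in CPM (vertical axis, TMM-scaled, starting at 0) in every TUMOUR STD (n = 5), CHEMO STD (n = 6) and CHEMO FO (n = 8) sample, with the mean and SD as bars. The 3 groups overlap for every gene, and CHEMO FO 18 (open diamond) lies below the other CHEMO FO samples for Ppargc1a, Ppargc1b, Esrra, Mfn2, Opa1, Dnm1l and Fis1.

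Among the coactivators, Ppargc1a had levels of 35.4, 31.2, 17.7, 31.6 and 22.5 CPM in TUMOUR STD 8 to 12. In CHEMO STD it ran from 21.5 to 34.0 CPM with a median of 29.3. The means were 27.7 ± 7.32 (SD, n = 5) and 28.6 ± 5.08 (n = 6), and the CHEMO STD samples lay inside the wider range of TUMOUR STD. The change was 0.04 on the log2 scale (SE 0.214, edgeR adjusted p = 0.97). Its 95% confidence interval, 0.757-fold to 1.40-fold, lay inside 1.5-fold in either direction.

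Ppargc1b was measured at 20.7, 35, 31.1, 28.8 and 27.3 CPM in TUMOUR STD 8 to 12. It lay between 16.1 and 22.2 CPM in 5 of the 6 CHEMO STD samples, with 37.9 CPM in CHEMO STD 6. Those 5 were below all TUMOUR STD samples but TUMOUR STD 8, while CHEMO STD 6 was above all of them. The change was -0.39 (SE 0.339, adjusted p = 0.768), and its interval, 0.470-fold to 1.25-fold, reached beyond 1.5-fold on the lower side. Leaving out CHEMO STD 6 moved it to -0.61, past 1.5-fold but not called. Leaving out CHEMO FO 18, which enters through the shared spread, left it at -0.38 with an edgeR unadjusted p of 0.0643. That was the smallest p for this gene on leaving out any sample.

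The transcription factors differed little. Nrf1 went from 18 ± 4.21 CPM in TUMOUR STD to 18.4 ± 2.35 in CHEMO STD, a log2 change of 0.04 (SE 0.161). Esrra went from 92.0 ± 7.24 to 89.7 ± 13.3 CPM, a log2 change of -0.04 (SE 0.167). Tfam, the factor that acts in the organelle itself, was at 63.1, 51.3, 36.4, 64.6 and 43.5 CPM in TUMOUR STD 8 to 12 and at 49.2 to 68.3 CPM in CHEMO STD. Its log2 change was 0.21 (SE 0.156, adjusted p = 0.741), and it was 0.10 without TUMOUR STD 10, the lowest sample.

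For fusion, Mfn1 was at 233, 184, 107, 195 and 135 CPM in TUMOUR STD 8 to 12, a wide spread of 171 ± 49.8. CHEMO STD ran from 134 to 245 CPM (195 ± 41.3), and the log2 change was 0.19 (SE 0.19, adjusted p = 0.794). Mfn2 kept to a narrow band, 153 ± 14.7 CPM in TUMOUR STD and 143 ± 9.81 in CHEMO STD, with a log2 change of -0.10 (SE 0.148). Opa1 was at 135 ± 10.3 and 144 ± 15.5 CPM in the same groups, with an interval of 0.910-fold to 1.24-fold.

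For division, Dnm1l had the smallest p of the 10 in this comparison. Its level was 112, 80.9, 42.4, 86.1 and 68.8 CPM in TUMOUR STD 8 to 12 and 66.1 to 125 CPM in CHEMO STD, with a median of 101. The highest TUMOUR STD sample exceeded 4 of the 6 CHEMO STD samples, so the groups overlapped. The log2 change was 0.34 (SE 0.206, unadjusted p = 0.109, adjusted p = 0.719), with an interval from 0.944-fold to 1.71-fold. It ran from 0.19 without TUMOUR STD 10 to 0.52 without TUMOUR STD 8, where the unadjusted p was 0.0234. It was 0.45 without CHEMO STD 1-2 (unadjusted p = 0.0427), and neither change reached 1.5-fold. Fis1 was level at 79.7 ± 9.42 and 79.6 ± 7.51 CPM, with an interval of 0.806-fold to 1.24-fold.

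In this comparison, 8 of the 10 intervals lay wholly inside 1.5-fold, which was so for 43.0% of all genes tested. Ppargc1b and Dnm1l were the exceptions, since the interval of Ppargc1b reached past 1.5-fold on the lower side and that of Dnm1l on the higher side.

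**Figure D2:**
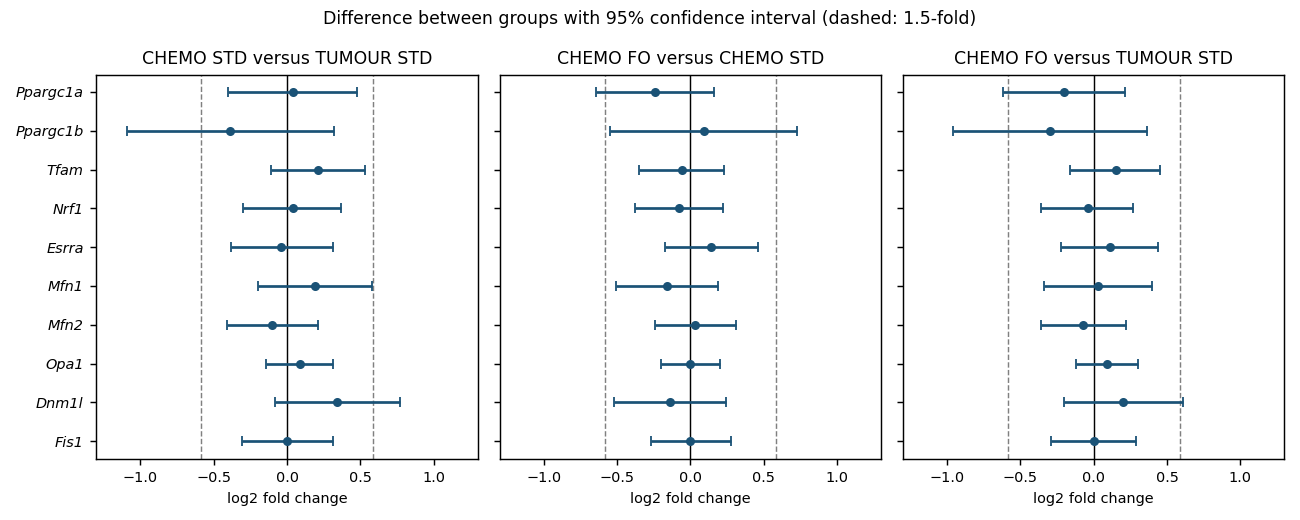
Log2 fold change of each gene (horizontal axis) in the 3 comparisons, with 95% confidence intervals from the edgeR fit and dashed lines at 1.5-fold. All 30 intervals include 0, and those of Ppargc1b reach past a dashed line in every comparison.

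Fish oil was compared with the standard diet among the rats given chemotherapy. None of the 10 genes was called (1.66% of all genes were, 195 genes), and none had an unadjusted p below 0.05 (4.51% of all genes). The log2 changes ran from -0.24 (Ppargc1a) to 0.14 (Esrra) with a median of -0.03, and 5 genes were higher and 5 lower in CHEMO FO. No gene of the whole table passed an adjusted p of 0.05 in edgeR (smallest 0.974) or DESeq2. Of the 10 intervals, 8 lay inside 1.5-fold, as did 55.8% of those of all genes.

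Ppargc1a ran from 12.0 to 33.4 CPM in CHEMO FO with a median of 25.7, a mean of 24.2 ± 6.54 (n = 8). The change against CHEMO STD was -0.24 (SE 0.193, adjusted p = 0.974), and it shrank to -0.13 without CHEMO FO 18. Ppargc1b spanned 3.18 to 36.0 CPM in CHEMO FO (median 25.3), where CHEMO FO 18 held 3.18 CPM and the other 7 samples held 19 CPM or more. Its log2 change was 0.09 (SE 0.311), and 0.28 (SE 0.184, unadjusted p = 0.147) without CHEMO FO 18.

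Esrra ran from 50.7 to 121 CPM in CHEMO FO with a median of 108, and 7 of the 8 samples were at 89.8 CPM or above. The log2 change was 0.14 (SE 0.15, unadjusted p = 0.346, adjusted p = 0.974). Without CHEMO FO 18, whose level was the lowest of all 19 samples, the mean of CHEMO FO was 106 ± 11.5 CPM and the log2 change 0.25 (SE 0.109, unadjusted p = 0.034), short of 1.5-fold. limma voom with sample weights gave 0.29 (unadjusted p = 0.0127, smallest adjusted p of the 10 genes 0.381).

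The remaining members moved by at most 0.16 on the log2 scale between the diets. Tfam was at 57.1 ± 8.90 CPM in CHEMO FO and Nrf1 at 17.3 ± 2.82. Mfn1 was at 174 ± 30.9 CPM, a log2 change of -0.16 (SE 0.169), and Dnm1l at 89.7 ± 17.6 CPM, a change of -0.14 (SE 0.183). Mfn2 (147 ± 29.7 CPM), Opa1 (144 ± 11.7) and Fis1 (80.0 ± 15.6) changed by 0.03, 0.00 and 0.00. The larger spread of Mfn2 and Fis1 in CHEMO FO came with CHEMO FO 18, at 79.7 and 45.1 CPM. Without it the SDs were 13.2 and 7.29 CPM.

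The fish oil group was also set against TUMOUR STD, a comparison that shares samples with both of the others. Again 0 of the 10 genes were called (3.6% of all genes, 422) and 0 had an unadjusted p below 0.05 (9.04% of all genes). Over all genes, 0 passed an adjusted p of 0.05 in edgeR (smallest 0.426) and 11 did in DESeq2, none of them a member. The changes ran from -0.30 (Ppargc1b) to 0.20 (Dnm1l), with a median of 0.01. Of the 10 intervals, 7 lay inside 1.5-fold, against 47.8% of all genes, and the others were those of Ppargc1a, Ppargc1b and Dnm1l. Ppargc1a stood at -0.20 (SE 0.201), Tfam at 0.15 (SE 0.147) and Esrra at 0.11 (SE 0.158).

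For each gene the order of the 3 groups therefore rests on differences within the spread. Tfam, Mfn1 and Dnm1l had their lowest mean in TUMOUR STD and their highest in CHEMO STD. Ppargc1a and Nrf1 had their lowest in CHEMO FO, and Ppargc1b, Esrra and Mfn2 in CHEMO STD. No neighbours in any of these orders differed by the test.

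Marker genes of fibre and cell types were read in the same samples. The 11 slow fibre genes, whose fibres are rich in mitochondria, all had lower levels after chemotherapy on the standard diet, 2 of them called. Their sum was 8340 to 16500 CPM in TUMOUR STD, 6760 to 11200 in CHEMO STD and 5670 to 15900 in CHEMO FO. Myh7, the slow fibre myosin, changed by -0.94 (SE 0.277, unadjusted p = 0.00255, adjusted p = 0.719). Of the 10 fast fibre genes in the table, 4 were lower and 0 called. Of 5 vascular smooth muscle genes tested, 5 were lower and 3 called, among them Acta2 at -1.11. Of 8 fibroblast and tendon genes 8 were lower and 2 called. Over all genes, 2.38% were called in this comparison. Among 6 leukocyte genes tested, 2 were lower, and 1 was called, Ptprc, which was higher at 1.16. None was called of the adipocyte, endothelial, Schwann cell and satellite cell lists. With fish oil against the standard diet, Ptprc (-1.16) and 3 Schwann cell genes were called lower and none of the other lists' genes was called. Over all genes, 1.66% were called in that comparison. Schwann cell genes summed to 434 CPM in CHEMO STD 1-2 and 296 CPM in CHEMO STD 7. In the other CHEMO STD samples their sum was 95.4 to 135 CPM, and in CHEMO FO 80.9 to 152 CPM. The medians of these sums were 132 CPM in CHEMO STD and 126 CPM in CHEMO FO. The leukocyte list was mixed, with 4 of the 6 genes lower while Cd163 (0.67) and Mrc1 (0.36) were higher, neither of them called. With fish oil against TUMOUR STD, where 3.6% of all genes were called, all 11 slow fibre genes were lower and 1 was called. The 5 smooth muscle genes and the 8 fibroblast and tendon genes were also all lower there, with 3 called in each list. Of the 10 fast fibre genes 4 were lower and 0 called. In bulk muscle, fewer cells of a type and less RNA per cell cannot be told apart. No marker passed adjustment over all genes. The part of these values in the members' values was not tested.

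The wider pathway was covered by 6 lists of related genes: regulators of biogenesis, mitochondrial DNA maintenance and transcription, fission adaptors, fusion and inner membrane processing, mitophagy and mitochondrial transport. Of their 96 genes, 93 had a row and 88 were tested. None of the 88 was called in any comparison, where 2.38%, 1.66% and 3.6% of all genes were. An unadjusted p below 0.05 was reached by 3 genes after chemotherapy (3.41%, against 6.5% of all genes). With fish oil against the standard diet it was 3 genes (3.41%, against 4.51%). With fish oil against TUMOUR STD it was 1 gene (1.14%, against 9.04%). The medians over the 88 genes were 0.04, 0.01 and 0.06 on the log2 scale.

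After chemotherapy, Apoo, a subunit of the MICOS complex that shapes cristae, went from 30.9 ± 10.3 to 43.9 ± 10.3 CPM, a log2 difference of 0.50 (unadjusted p = 0.028, adjusted p = 0.719). Mterf4, which acts in assembly of the mitochondrial ribosome, went from 10.1 ± 2.93 to 13.8 ± 3.02 CPM (0.42, unadjusted p = 0.0489). Pprc1, another coactivator of the PGC-1 family, went the other way, from 23.5 ± 4.90 to 18.2 ± 3.45 CPM (-0.36, unadjusted p = 0.0469). Ppard, a nuclear receptor that works with PGC-1 alpha on fat oxidation genes, went from 18.3 ± 5.35 to 13.9 ± 3.49 CPM (-0.38, unadjusted p = 0.0627). None of these 4 passed with adjustment over all genes.

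In the mitochondrial DNA list, 13 of 19 genes were higher in CHEMO STD and the median was 0.33, against -0.0016 over all genes. It was the list with the highest median in this comparison. Its members Mterf1 (0.45), Top1mt (0.43), Tefm (0.42) and Mterf3 (0.40), chosen for naming after their values were seen, had unadjusted p-values of 0.076, 0.0631, 0.0586 and 0.0704. Polrmt, the RNA polymerase of mitochondrial DNA, lay on the other side at -0.39 (unadjusted p = 0.0697). In CHEMO FO versus TUMOUR STD, which shares the TUMOUR STD samples, 16 of the 19 genes were higher and the median was 0.16. In CHEMO FO versus CHEMO STD, 11 of the 19 were higher and the median was 0.01. The product of the machinery of mitochondrial transcription was not measurable here. All 13 mitochondrially encoded mRNA rows held 0 counts in all 20 libraries, and no conclusion on mitochondrial transcripts follows from a row of that kind.

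With fish oil against the standard diet, Ppard went from 13.9 ± 3.49 to 19.9 ± 2.85 CPM (0.50, SE 0.179, unadjusted p = 0.0107, adjusted p = 0.974). Its mean in TUMOUR STD was 18.3 CPM. Sqstm1, the p62 receptor that carries cargo to autophagosomes, went from 447 ± 60.1 to 593 ± 200 CPM (0.41, unadjusted p = 0.0253), with 1050 CPM in its highest sample. Polrmt stood at 0.44 (unadjusted p = 0.0268), named after its value was seen. On the lower side, Apoo was at 33.4 ± 6.67 CPM (-0.38, unadjusted p = 0.0542) and Tefm, an elongation factor of mitochondrial transcription, at 9.26 ± 2.85 CPM against 11.9 ± 1.60 (-0.34, unadjusted p = 0.0837). These comparisons share the CHEMO STD samples with the first, so a high or low value there enters the 2 with opposite sign.

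Between fish oil and TUMOUR STD, Usp30, a deubiquitinase that restrains mitophagy, went from 9.54 ± 2.36 to 6.82 ± 1.9 CPM (-0.49, unadjusted p = 0.0243, adjusted p = 0.516). Esrrg, the receptor ERR gamma of oxidative muscle, went from 21.7 ± 6.59 to 15.1 ± 6.30 CPM (-0.55, unadjusted p = 0.0805). Mterf1 stood at 0.45 (unadjusted p = 0.0582) and Stoml2, an inner membrane scaffold protein, at 0.20 (unadjusted p = 0.0613).

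**Figure D3:**
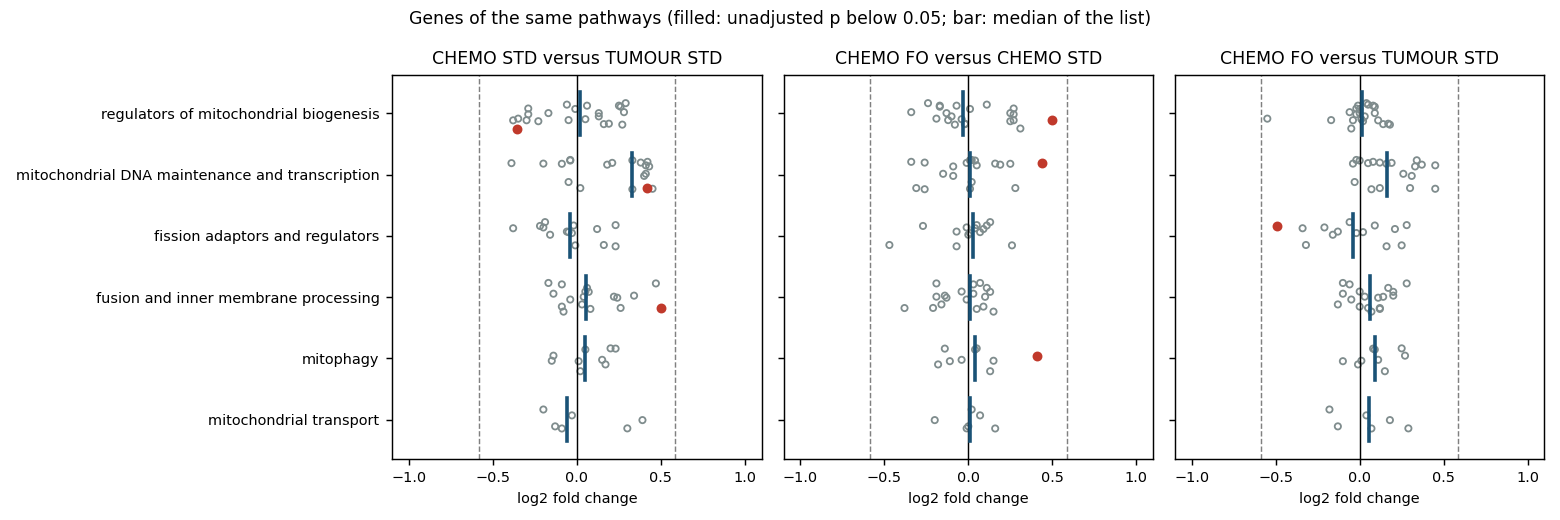
Log2 fold change (horizontal axis) of the 88 tested pathway genes in 6 lists (vertical axis) for the 3 comparisons; filled points have an unadjusted p below 0.05, bars are list medians and dashed lines mark 1.5-fold. No point passes a dashed line. The median of the mitochondrial DNA list is 0.33 in CHEMO STD versus TUMOUR STD. It is 0.01 in CHEMO FO versus CHEMO STD and 0.16 in CHEMO FO versus TUMOUR STD.

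Within groups, several of the members varied together from sample to sample. Each gene's log2 CPM was set relative to the mean of its group, and the 45 pairs of genes were correlated across the 19 samples, with a two-sided permutation test within groups of 100000 resamples. In all, 13 pairs passed an adjusted p of 0.05 over the 45 pairs, all 13 with a positive r. By Spearman's rho 11 pairs passed, 10 of them among the 13. The remaining pair, Tfam with Esrra, was negative (rho -0.60, r -0.49, permutation adjusted p = 0.0277 and 0.0707). The share of pairs passing among all genes was not computed, so 13 of 45 cannot be set against it. The 13 pairs fell into 2 sets, drawn after the correlations were seen. One held Ppargc1a, Mfn1, Dnm1l and Opa1, with Tfam joined to Mfn1 and Dnm1l, and the other held Ppargc1b, Esrra, Mfn2 and Fis1.

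Mfn1 and Dnm1l, a fusion and a division gene, were the closest pair. Their r was 0.96 and rho 0.90 (permutation p = 1e-05 for each, the smallest that 100000 resamples can give, adjusted p = 0.00015 and 0.00045). Without the 2 samples farthest from the median of Mfn1, TUMOUR STD 10 and CHEMO STD 1-2, r was 0.93. Of the 8349 genes with a mean of at least 50 counts, 0.024%, Dnm1l included, were as strongly correlated with Mfn1 in either direction. In single samples the match was plain. TUMOUR STD 10 was lowest in its group for both genes (107 and 42.4 CPM) and TUMOUR STD 8 highest (233 and 112 CPM), and the summed CHEMO STD 1-2 was lowest in its group (134 and 66.1 CPM).

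Ppargc1a varied with the same genes and with Opa1, and 0.491% to 2.11% of the 8349 genes were as strongly correlated with it as these 3. Its r was 0.85 with Dnm1l (rho 0.80, adjusted p = 0.00015 and 0.0033), 0.81 with Mfn1 (rho 0.77, adjusted p = 0.00045 and 0.00709) and 0.78 with Opa1 (rho 0.68, adjusted p = 0.000675 and 0.0184), each by permutation. Without TUMOUR STD 10 and CHEMO FO 18, the samples farthest from its median, these were 0.83, 0.81 and 0.64. Over all 19 samples, 1.27% of the 8349 genes were as strongly correlated with Dnm1l as Ppargc1a was. For Mfn1 the share was 4.2% and for Opa1 1.7%. Opa1 was also correlated with Mfn1 (r 0.86, rho 0.81) and Dnm1l (r 0.82, rho 0.69). Opa1 did this within a small spread, an SD of 0.13 on the log2 scale that was below that of all but 1.49% of the genes, against 0.38 for Dnm1l.

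Tfam was tied to Mfn1 (r 0.67, rho 0.61, permutation adjusted p = 0.0281 and 0.0654) and to Dnm1l (r 0.65, rho 0.55, adjusted p = 0.0291 and 0.0848). These relations rested in part on TUMOUR STD 10 and CHEMO FO 16, since r was 0.43 and 0.38 without them. Correlations as strong were common among the 8349 genes, held by 16.1% of them with Tfam and 16.8% with Mfn1 for the first pair, and by 17.7% with Tfam and 14.9% with Dnm1l for the second. Nrf1 passed with no other member, and its r with Ppargc1a was -0.53 (rho -0.45, permutation adjusted p = 0.112 and 0.181).

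In the other set the values leaned on 1 sample. Ppargc1b had an r of 0.90 with Mfn2 (rho 0.66, permutation adjusted p = 0.0119 and 0.0184) and 0.88 with Esrra (rho 0.67, adjusted p = 0.00602 and 0.0184). Esrra had 0.88 with Mfn2 (rho 0.69) and 0.86 with Fis1 (rho 0.65), and Mfn2 had 0.84 with Fis1 (rho 0.50). CHEMO FO 18 was the lowest sample of its group for all 4 genes, at 3.18 CPM for Ppargc1b, 50.7 for Esrra, 79.7 for Mfn2 and 45.1 for Fis1. Without it the 5 correlations were 0.49, 0.55, 0.55, 0.53 and 0.37, and none passed (smallest permutation adjusted p = 0.0541).

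Leaving out CHEMO FO 18 left 8 of the 13 pairs past the threshold and added 3. The added pairs were Ppargc1a with Tfam (r 0.69), Tfam with Opa1 (0.57) and Opa1 with Fis1 (-0.63, permutation adjusted p = 0.0417). Mfn1 and Mfn2, with an r of 0.00 over all 19 samples, then had one of -0.51, which did not pass (permutation adjusted p = 0.0937), and -0.31 without the 3 libraries (adjusted p = 0.446). Leaving out TUMOUR STD 10 and CHEMO FO 16 as well kept 4 pairs. These were Mfn1 with Dnm1l (r 0.93, adjusted p = 0.0018), Ppargc1a with Dnm1l (0.81, 0.0117), Mfn1 with Opa1 (0.80, 0.0121) and Ppargc1a with Mfn1 (0.78, 0.0223), each by permutation.

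**Figure D4:**
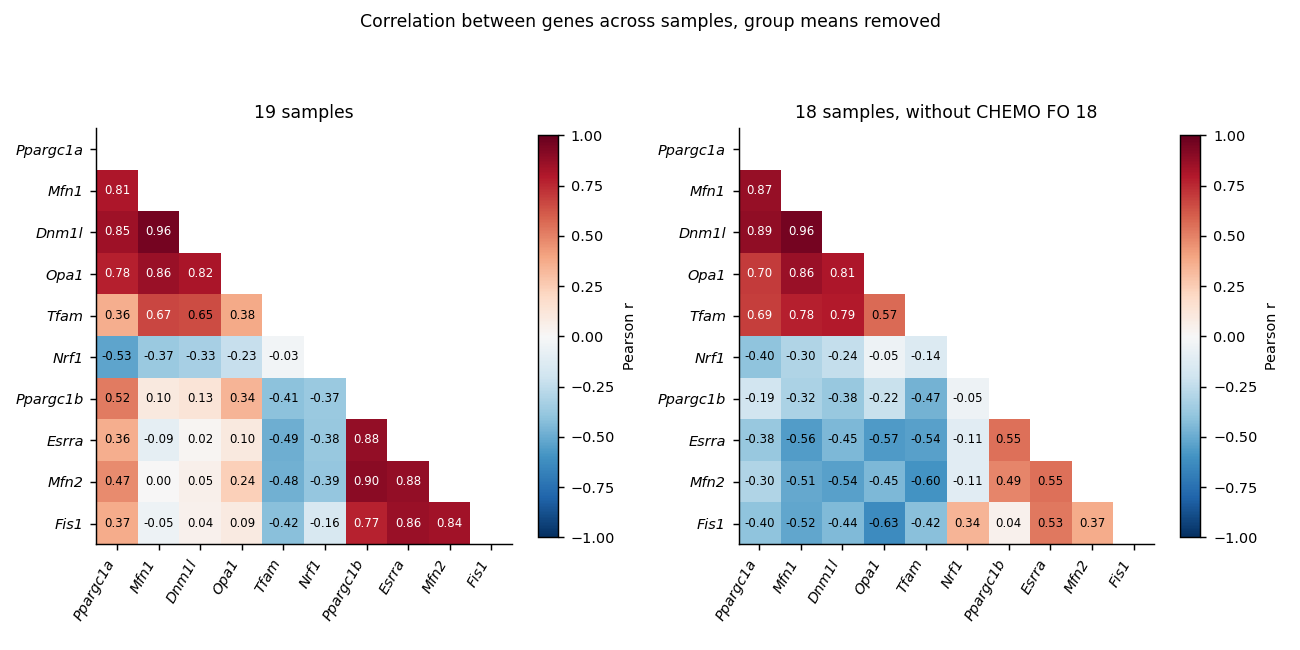
Pearson r between each pair of genes over 19 samples (left) and over 18 samples without CHEMO FO 18 (right), on log2 CPM with group means removed (colour scale from -1 to 1). The block of Ppargc1a, Mfn1, Dnm1l and Opa1 stays between 0.70 and 0.96 on the right, while the block of Ppargc1b, Esrra, Mfn2 and Fis1 falls to between 0.04 and 0.55.

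**Figure D5:**
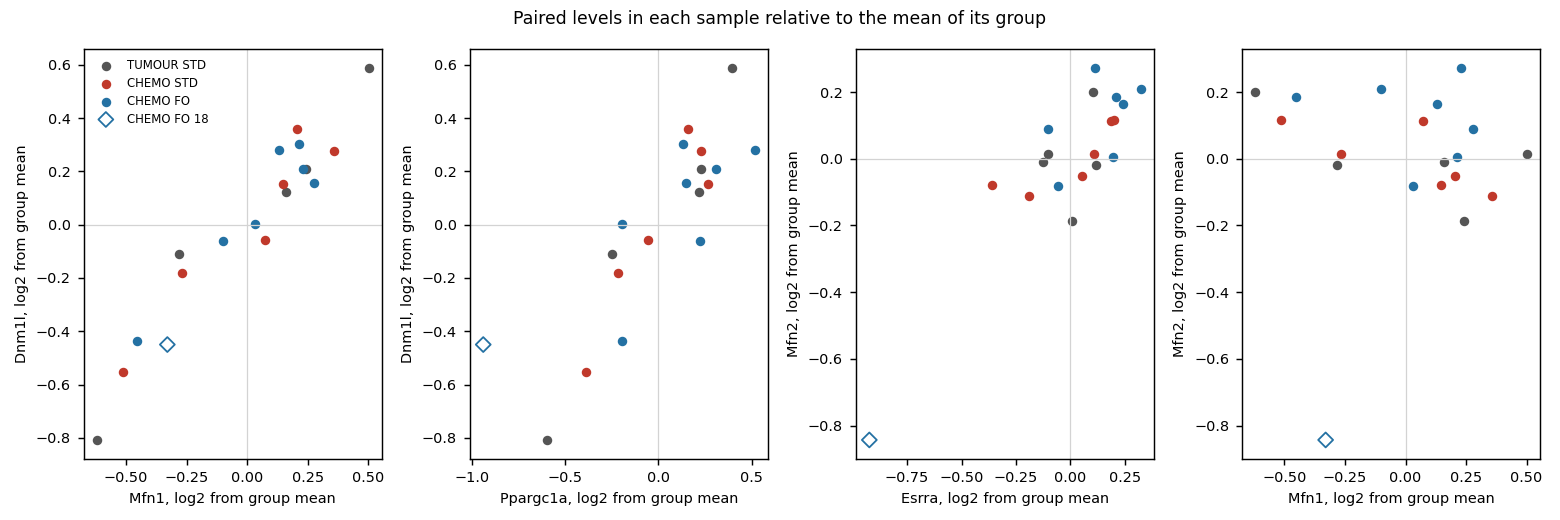
Level of 2 genes in each sample as the log2 difference from the mean of its group, for 4 pairs, coloured by group with CHEMO FO 18 as an open diamond. Mfn1 and Dnm1l fall along a line in all 3 groups (r 0.96), while in the plot of Esrra and Mfn2 CHEMO FO 18 lies far below all other samples.

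Other measures moved along with these values. The samples with the lowest Mfn1 and Dnm1l in TUMOUR STD, replicates 10 and 12, and in CHEMO STD, replicates 1-2, had fibroblast and tendon sums of 13880, 14370 and 12070 CPM. The other 16 samples had 2010 to 7767 CPM. In CHEMO FO the lowest Mfn1 was in CHEMO FO 16 (125 CPM), which had the highest such sum of its group, 7767 CPM, and the second lowest in CHEMO FO 18 (136 CPM), which had the lowest, 2010 CPM. CHEMO FO 18 also had the largest TMM factor, 1.21 against 0.934 to 1.06 in the others. The part of connective tissue, of leukocyte RNA and of scaling in the correlations was not tested.

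Across the 8349 genes, those most like Ppargc1a over the 19 samples were Pdp1 (r 0.92), the phosphatase that activates pyruvate dehydrogenase, and Pkia (0.91), an inhibitor of protein kinase A. Next came Tmem126a (0.91), which helps assemble respiratory complex I, Lrrc39 (0.91), a protein of the sarcomere's M-band, and Atpaf1 (0.90), an assembly factor of ATP synthase. Creld1 (-0.92), Zswim4 (-0.89) and Hgs (-0.88), the last a sorting protein of endosomes, ran most strongly against it. These values are descriptions, chosen as the extremes of the table. Without CHEMO FO 18 the 5 highest were between 0.83 and 0.87. Among the members, Dnm1l ranked 30, Mfn1 78 and Opa1 116 of 8348 genes by r with Ppargc1a, and Ppargc1b ranked 1120.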

How the data were processed

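RNA-seq counts of 20 gastrocnemius libraries were analysed. The authors deposited raw counts per gene, made with CASAVA 1.9, Trim Galore 0.4.1, FastQC 0.11.4, TopHat2 2.0.10 and Bowtie2 on the rat Rnor 6 build and counted in Partek Flow with an Ensembl annotation. Tool versions are from the submitters' processing notes and the methods. The strand and multi-mapping settings were not given. The 388 unnamed rows (0.102% to 0.272% of counts) were left out. Groups came from the sample titles.

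The members, gene lists and tests were chosen with earlier results of these data known. CHEMO STD replicates 1 and 2 were summed. Genes passing filterByExpr (11716) were fitted over 19 samples and 3 groups with edgeR 4.0.16 (TMM, quasi-likelihood test, R 4.3.3), with Benjamini-Hochberg adjustment over all of them. Replicate numbers are not shared between groups, so no sample was paired. Confidence intervals are at 95%. Correlations used log2 CPM with a prior count of 2. DESeq2 1.42.0, limma 3.58.1 voom, RLE factors, library totals, other filters and leaving out samples were alternatives. Scripts were tested on simulated data.

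Genes named from the pathway lists were those called or, failing that, the 2 with the smallest unadjusted p in each direction. For Ppargc1a the 5 highest and 3 lowest correlations were named. Sirt1 and Mtfr2 of these lists, and Myh1, Myh2, Atp2a1, Pecam1 and Col1a2 of the marker lists, were not analysed here. Promoter sequences are from RefSeq (GRCr8), with entries for 9 of the 10 members. The planned share of counts on mitochondrially encoded genes could not be computed, since those rows held 0 counts.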

Additional observations from a re-analysis of the deposited data

Results flagged for a closer look

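In 30 sets of values (10 genes in 3 groups), 4 had a sample whose gap to its nearest neighbour was large for the range of its group by Dixon's criterion, where chance gives about 1 in 20. Of the 4, 3 were in CHEMO FO 18, which had the lowest CHEMO FO level of Esrra (50.7 CPM, next 89.8), Mfn2 (79.7 CPM, next 135) and Fis1 (45.1 CPM, next 76.6). The fourth was Ppargc1b in CHEMO STD 6, at 37.9 CPM with the next sample at 22.2. In CHEMO FO 18 the leukocyte sum was 529 CPM and the fast fibre sum 106300 CPM, the highest and the lowest of all 19 samples. Their part in the low levels was not tested.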

How the results depend on the processing

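The count of members called was 0 in all 3 comparisons under every alternative run, and no member was newly called. Of 290 alternative values in each comparison, 32, 22 and 16 changed sign, all in genes whose change was close to 0. In CHEMO STD versus TUMOUR STD these were Fis1 (DESeq2 0.01, voom 0.02, RLE factors 0.01, library totals 0.02, replicates 1 and 2 kept separate 0.03, only the 2 groups 0.004, without the 3 libraries that stand apart 0.05; leaving out samples -0.06 to 0.05) and Ppargc1a (voom -0.0016, replicates kept separate -0.01, without the 3 libraries -0.09; leaving out samples -0.09 to 0.15). Leaving out samples gave Nrf1 -0.06 to 0.17 and Esrra -0.07 to 0.03. In CHEMO FO versus CHEMO STD they were Fis1 (library totals -0.04, replicates kept separate -0.02, only the 2 groups -0.0018; leaving out samples -0.05 to 0.10), Opa1 (library totals -0.03, replicates 1 and 2 left out -0.05, only the 2 groups -0.0016; leaving out samples -0.05 to 0.04) and Mfn2 (library totals -0.01; leaving out samples -0.0032 to 0.13). Ppargc1b ran from -0.02 to 0.32. In CHEMO FO versus TUMOUR STD they were Mfn2 (voom 0.06, without the 3 libraries 0.08; leaving out samples -0.11 to 0.04), Nrf1 (voom 0.01; -0.14 to 0.09), Mfn1 (voom -0.02; -0.10 to 0.18) and Fis1 (library totals -0.02; -0.06 to 0.10). The cause was not tested.

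The number of correlated pairs was 10 to 15 under the other scalings, prior count and measure and on leaving out a sample and 4 without TUMOUR STD 10, CHEMO FO 16 and CHEMO FO 18, an alternative chosen after seeing the data, with fewer samples. Counts over all genes moved more. Against 279, 195 and 422 called, no filter gave 971, 722 and 1116, no fold threshold 762, 528 and 1059, and 2-fold 64, 58 and 112. CHEMO STD versus TUMOUR STD gave 603 without CHEMO STD 1-2, 530, 161 and 450 without TUMOUR STD 8, 10 and 11. CHEMO FO versus TUMOUR STD gave 273 without CHEMO FO 18 and 235 without the 3 libraries. No paired analysis was possible because the groups share no replicate numbers. The planned test of mitochondrially encoded counts was not run, since all those rows held 0. The lowest count of a member in a sample was 35, of Ppargc1b in CHEMO FO 18, and the lowest of Nrf1 was 42, so counting error weighs most on low values of these genes.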
